A study of Homo sapiens with 112 samples.

Results

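The 47 genes described here encode the machinery that copies DNA in S phase and the factors that switch it on. They were chosen as a written list of symbols, and all 47 were found among the 58684 rows of the expression table. All 47 were also among the genes tested, 19266 in VCaP and 18204 in LAPC4, for which 10 or more reads were required in 4 or more libraries. VCaP and LAPC4 are androgen-responsive human prostate cancer cell lines, and both were starved of steroids for 2 days, in 10% charcoal-stripped serum, before treatment. Every group then received DMSO alone, 1 nM R1881, or 1 nM R1881 with 500 nM or 2 µM darolutamide, and was harvested after 8 h or 22 h. R1881 is a synthetic androgen, darolutamide is an antagonist of the androgen receptor, and no group received darolutamide without R1881. Poly(A) RNA was sequenced in 55 VCaP and 57 LAPC4 libraries. For VCaP there were 10 libraries of DMSO, 10 of R1881, 4 of the lower and 5 of the higher dose after 8 h, and 8, 9, 4 and 5 after 22 h. For LAPC4, in the same order, there were 10, 10, 5 and 5 after 8 h, then 7, 10, 5 and 5 after 22 h. Each line stands for 1 tumor, and the cells were not separated by cell-cycle phase.

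DNA replication starts at origins to which the ORC complex, CDC6 and CDT1 load the MCM helicase in G1. CDC45 and the GINS complex then join the helicase, polymerases and primase copy both strands, and PCNA with its loader RFC keeps the polymerases on the template. Transcription of most of these genes is driven by E2F factors, which RB restrains until cyclin-dependent kinases phosphorylate it, so their RNA is widely read as a sign of cells in or near S phase. In bulk RNA, a different share of cells in S phase and a different amount of RNA per cell cannot be told apart.

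The depth of the libraries ranged from 12188455 to 25201678 counted reads. ERG, which VCaP carries as a fusion under an androgen-responsive promoter, had 1578 to 21554 reads per VCaP library and 0 to 1 read in LAPC4. With R1881 at 22 h, FKBP5, a direct androgen receptor target, rose by 5.49 in VCaP and 1.36 in LAPC4 on the log2 scale. With 2 µM darolutamide at 22 h, 8 androgen target genes stayed above DMSO in VCaP, by a median log2 difference of 1.02. In LAPC4 their median difference from DMSO was 0.04. Against R1881 in VCaP their median was -2.24 with 2 µM and -1.36 with 500 nM. All 7 luminal prostate markers reached 1 CPM, the read count scaled to library size, in both lines, and none of 5 leukocyte markers did. Among 5 stromal markers LUM was the one with an appreciable level in VCaP. The summed stromal level there ranged from 26.1 to 29.6 CPM in DMSO, from 0.630 to 1.61 CPM in R1881, from 4.81 to 5.79 CPM with 2 µM darolutamide and from 1.17 to 1.99 CPM with 500 nM at 22 h. Its part in the results below was not tested. Of the other stromal markers, COL1A2 had no read in any VCaP library, DCN had 0 to 7, COL3A1 0 to 16 and COL1A1 7 to 40. Among 3 basal markers KRT5 and KRT14 reached 1 CPM in LAPC4, at most 1.51 and 1.05 CPM, and none did in VCaP.

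Promoter sequences, 300 bases from 250 before to 50 after the annotated start, were taken from RefSeq on GRCh38.p14 and were found for 40 of the 47 genes. MCM4, MCM5, GINS4, POLD3, RPA2, E2F8 and CCNE2 had no entry. An E2F-type motif, here TTCCCGC or TTGGCGC or TTCGCGC on either strand, was held by 33 of these 40 genes (82.5%) and by 3572 of all 27305 genes in the table (13.1%). The CHR element TTTGAA, typical of genes expressed in G2 and mitosis, was held by 2 of the 40 (5.0%) against 18.2% of all genes, and CCAAT by 24 (60.0%) against 39.7%. The motifs are a description of these windows and not evidence of binding. The 4 promoters below belong to the 3 members of each line with the largest called R1881 response at 22 h, of which MCM5 has no entry and E2F1 counts in both, and capitals mark the E2F-type motif as read on the gene's strand.
PRIM1, chr12:56752274-56752573, minus strand: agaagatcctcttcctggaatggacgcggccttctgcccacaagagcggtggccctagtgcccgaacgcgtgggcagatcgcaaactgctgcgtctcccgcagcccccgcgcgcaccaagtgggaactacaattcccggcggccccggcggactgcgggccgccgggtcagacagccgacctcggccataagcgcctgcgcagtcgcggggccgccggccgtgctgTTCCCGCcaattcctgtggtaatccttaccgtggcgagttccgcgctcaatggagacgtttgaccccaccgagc
E2F1, chr20:33686336-33686635, minus strand: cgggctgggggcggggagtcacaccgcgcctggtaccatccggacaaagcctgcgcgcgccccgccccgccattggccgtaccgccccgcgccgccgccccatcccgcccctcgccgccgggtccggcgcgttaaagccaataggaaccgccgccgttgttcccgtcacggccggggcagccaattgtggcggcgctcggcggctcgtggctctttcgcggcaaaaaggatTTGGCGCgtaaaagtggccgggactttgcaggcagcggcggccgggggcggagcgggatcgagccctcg
CDC6, chr17:40287629-40287928, plus strand: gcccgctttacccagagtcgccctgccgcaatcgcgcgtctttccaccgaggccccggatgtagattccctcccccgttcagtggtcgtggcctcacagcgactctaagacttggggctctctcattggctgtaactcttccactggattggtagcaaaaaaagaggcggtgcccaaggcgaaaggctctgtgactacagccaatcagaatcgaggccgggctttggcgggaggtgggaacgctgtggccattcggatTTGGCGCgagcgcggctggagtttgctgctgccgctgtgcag
CDC45, chr22:19479216-19479515, plus strand: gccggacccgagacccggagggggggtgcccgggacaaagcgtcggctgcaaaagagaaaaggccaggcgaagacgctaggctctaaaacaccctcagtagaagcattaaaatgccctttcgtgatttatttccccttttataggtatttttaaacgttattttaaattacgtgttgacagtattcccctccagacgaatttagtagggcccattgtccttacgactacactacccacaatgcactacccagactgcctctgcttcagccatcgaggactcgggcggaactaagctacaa
PRIM1 fell and E2F1 and CDC6 rose with R1881 in VCaP, and each of these 3 windows holds 1 such motif. CDC45 has 3 starts in the table, the first of which is shown, and none of the 3 windows holds the motif.

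Averaged over the 47 genes, the level in VCaP at 22 h was lowest in DMSO, slightly higher in R1881 and far higher when darolutamide was added to R1881. The mean log2 CPM over the members was 4.49 ± 0.0379 (SD, n = 8) in DMSO and 4.73 ± 0.0275 (SD, n = 9) in R1881. Adding 500 nM darolutamide to R1881 brought this mean to 5.85 ± 0.0420 (SD, n = 4), and adding 2 µM brought it to 5.87 ± 0.0124 (SD, n = 5). At 8 h the corresponding VCaP means were 4.51, 4.61, 4.76 and 4.72, a narrower range than at 22 h. Even so, the 500 nM libraries at 8 h, from 4.75 to 4.77, all lay above the highest R1881 library, 4.69, and the highest DMSO library, 4.54. The 2 µM libraries at 8 h, from 4.68 to 4.76, overlapped those of R1881. In LAPC4 at 22 h the R1881 libraries were the highest, with a mean of 5.35 ± 0.0420 (SD, n = 10) against 5.14 ± 0.0300 (SD, n = 7) in DMSO. In the same LAPC4 set it was 5.22 ± 0.0315 (SD, n = 5) for the lower dose and 5.18 ± 0.0469 (SD, n = 5) for the higher. The 4 LAPC4 means at 8 h lay between 5.41 and 5.44, all above those at 22 h.

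**Figure D1:**
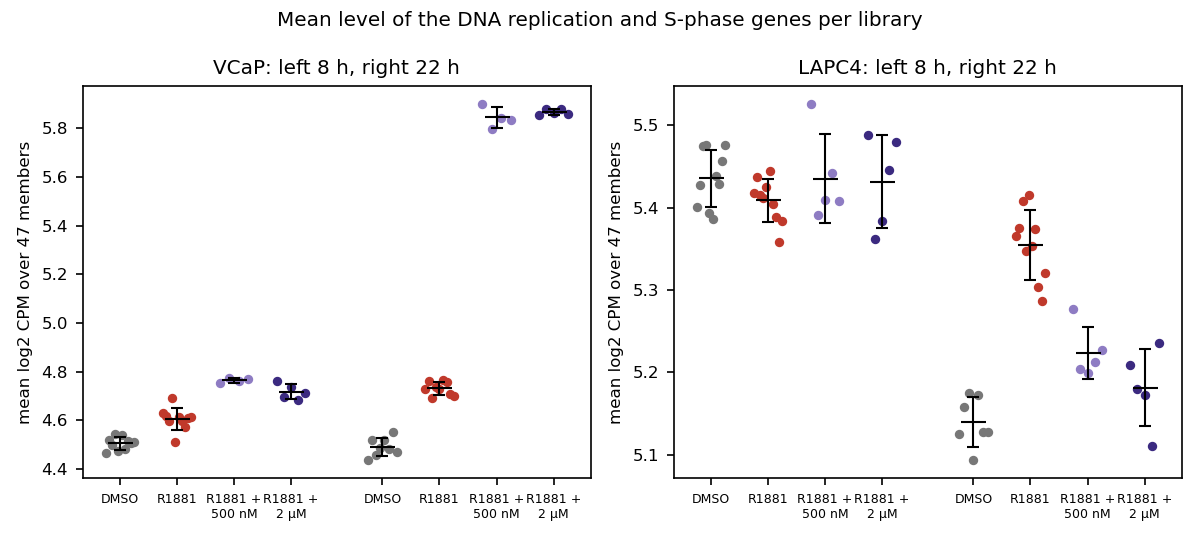
Mean log2 CPM over the 47 members (vertical axis) for every library, by treatment, with VCaP on the left, LAPC4 on the right and 8 h before 22 h in each panel. Points are libraries and bars are the group mean ± SD; the 9 VCaP libraries with darolutamide at 22 h stand apart from the other 46, between 5.80 and 5.90, and the vertical scales of the panels differ.

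The first comparison asked how androgen changed the replication genes in VCaP after 22 h. Most rose and a smaller set fell: 29 of the 47 were higher and 9 lower with R1881 than with DMSO, and 9 did not pass the test (edgeR's quasi-likelihood test, Benjamini-Hochberg adjusted p under 0.05 over all genes). Of all 19266 genes tested, 77.4% were called, 37.4% of them as higher and 40.0% as lower. The median log2 fold change of the members was 0.24, against -0.03 over all genes. With library totals in place of the TMM factors, which moved the median of all genes to -0.14, 23 members were higher and 12 lower. At 17 of the 47 genes every R1881 library lay above every DMSO library, as at 23.4% of all genes, and at PRIM1, PRIM2, RPA2 and UNG every R1881 library lay below, as at 23.3% of all genes.

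Origin licensing genes rose. CDC6, which brings the helicase to origins, measured 31.8 CPM at the lowest, 35.4 at the median and 38.8 at the highest in the 8 DMSO libraries and 77.8, 82.4 and 89.3 CPM in the 9 R1881 libraries. The groups did not overlap, and the log2 fold change was 1.23 ± 0.048 (SE, edgeR's quasi-likelihood test, adjusted p 2.43e-30). ORC6, a subunit of the origin recognition complex, rose from a median of 8.14 to 12.2 CPM, a log2 difference of 0.53, and ORC1, the largest subunit of that complex, by 0.33. CDT1, the partner of CDC6 in loading, had few reads and a wide error, with a log2 fold change of 0.38 ± 0.23 that did not pass the test (edgeR's quasi-likelihood test, adjusted p 0.125).

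Of the 6 MCM helicase subunits 5 rose and MCM2 did not pass the test, with a median of 57.5 CPM in DMSO and 57.4 in R1881. MCM5 had the largest change of the 6, from 14.6, 20.4 and 24.1 CPM (lowest, median, highest) to 23.3, 34.1 and 40.5 CPM, a log2 fold change of 0.77 ± 0.11 (SE). The lowest R1881 library lay just below the highest DMSO library. MCM6 rose by 0.62 from 63.3–75.4 CPM to 102–114 CPM without overlap. MCM3, MCM4 and MCM7 rose by 0.23, 0.18 and 0.17.

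Helicase activation genes rose in 5 of 6 cases. GINS3, a GINS subunit, changed most, from 4.69, 5.56 and 5.82 CPM in DMSO to 8.29, 9.39 and 10.2 CPM in R1881, a log2 fold change of 0.81 ± 0.056 (SE, edgeR's quasi-likelihood test, adjusted p 2.5e-19). CDC45, the factor that joins GINS on the helicase, went from 21.4, 23.2 and 25.9 CPM to 32.9, 35.7 and 37.8 CPM, and MCM10, which helps to start the helicase, rose by 0.60. These genes did not overlap between the groups, whereas GINS1 had nearly the same median in both, 30.6 and 29.4 CPM.

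The polymerase and primase genes were divided, 2 higher, 2 lower and 4 not called. PRIM1, the catalytic subunit of primase, which makes the RNA primers, measured 29.9, 31.7 and 36.3 CPM in DMSO and 10.5, 12.1 and 14.0 CPM in R1881. It was the largest fall of the 47, a log2 fold change of -1.41 ± 0.058 (SE, edgeR's quasi-likelihood test, adjusted p 2.53e-29), with no overlap. PRIM2, the regulatory primase subunit, fell by 0.35 on the log2 scale, while POLE2, a subunit of the leading-strand polymerase, rose by 0.64. POLA2, which tethers primase to polymerase alpha, had a log2 difference of 0.08 and lost its call in several other fits, with -0.03 under library totals.

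Among the 8 genes of the clamp, its loader, RPA and Okazaki fragment processing, 4 rose and 3 fell. PCNA, the sliding clamp, rose from 123, 131 and 142 CPM to 177, 186 and 189 CPM, a log2 fold change of 0.49. FEN1, the flap nuclease that trims Okazaki fragments, rose by 0.75 from 22.4–26.2 CPM to 37.9–43.7 CPM. Both were separate in every library. LIG1, the ligase that seals these fragments, fell by 0.33, RPA2, a single-strand binding subunit, by 0.25 and the loader subunit RFC4 by 0.21 on the log2 scale.

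Genes of nucleotide supply and uracil removal also went both ways. TK1, thymidine kinase, rose by 0.68 and RRM2, the regulated subunit of ribonucleotide reductase, by 0.24. UNG, which removes uracil from DNA, measured 78.5, 87.0 and 92.2 CPM in DMSO and 55.3, 56.2 and 63.7 CPM in R1881. That is a fall by 0.54 on the log2 scale with no overlap, and TYMS, which makes thymidylate, fell by 0.13. Exons of TYMS overlap those of ENOSF1 on the other strand over 39.9% of their length, and the strand setting of the read counting was not given, so the level of TYMS is uncertain.

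The 5 genes of chromatin assembly, fork protection and licensing control all rose. CLSPN, an adaptor of the replication checkpoint, went from 9.26–11.9 CPM to 16.6–22.9 CPM, a log2 fold change of 0.84, and UHRF1, which maintains DNA methylation on new strands, rose by 0.78. DTL, which marks CDT1 for destruction in S phase, rose by 0.32.

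Of the E2F factors and cyclins E, E2F1 stood out. E2F1, an activator of the replication genes, measured 9.82, 12.6 and 14.9 CPM in DMSO and 28.2, 32.6 and 35.2 CPM in R1881, so no library overlapped. Its log2 fold change of 1.37 ± 0.077 (SE, edgeR's quasi-likelihood test, adjusted p 3.17e-23) was the largest rise among the members. E2F2, a related activator, rose by 0.60 and the cyclin E gene CCNE2 by 0.53, although 37% of the exon length of CCNE2 overlaps INTS8 on the other strand, so its level is uncertain. E2F8, a repressor of the same family, fell by 0.21 and CCNE1 by 0.49 on the log2 scale. CCNE1 was scarce in VCaP, at 1.04 to 1.84 CPM in DMSO and 0.617 to 1.40 CPM in R1881, and with control replicates 1 to 5 its fall did not pass the test.

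**Figure D2:**
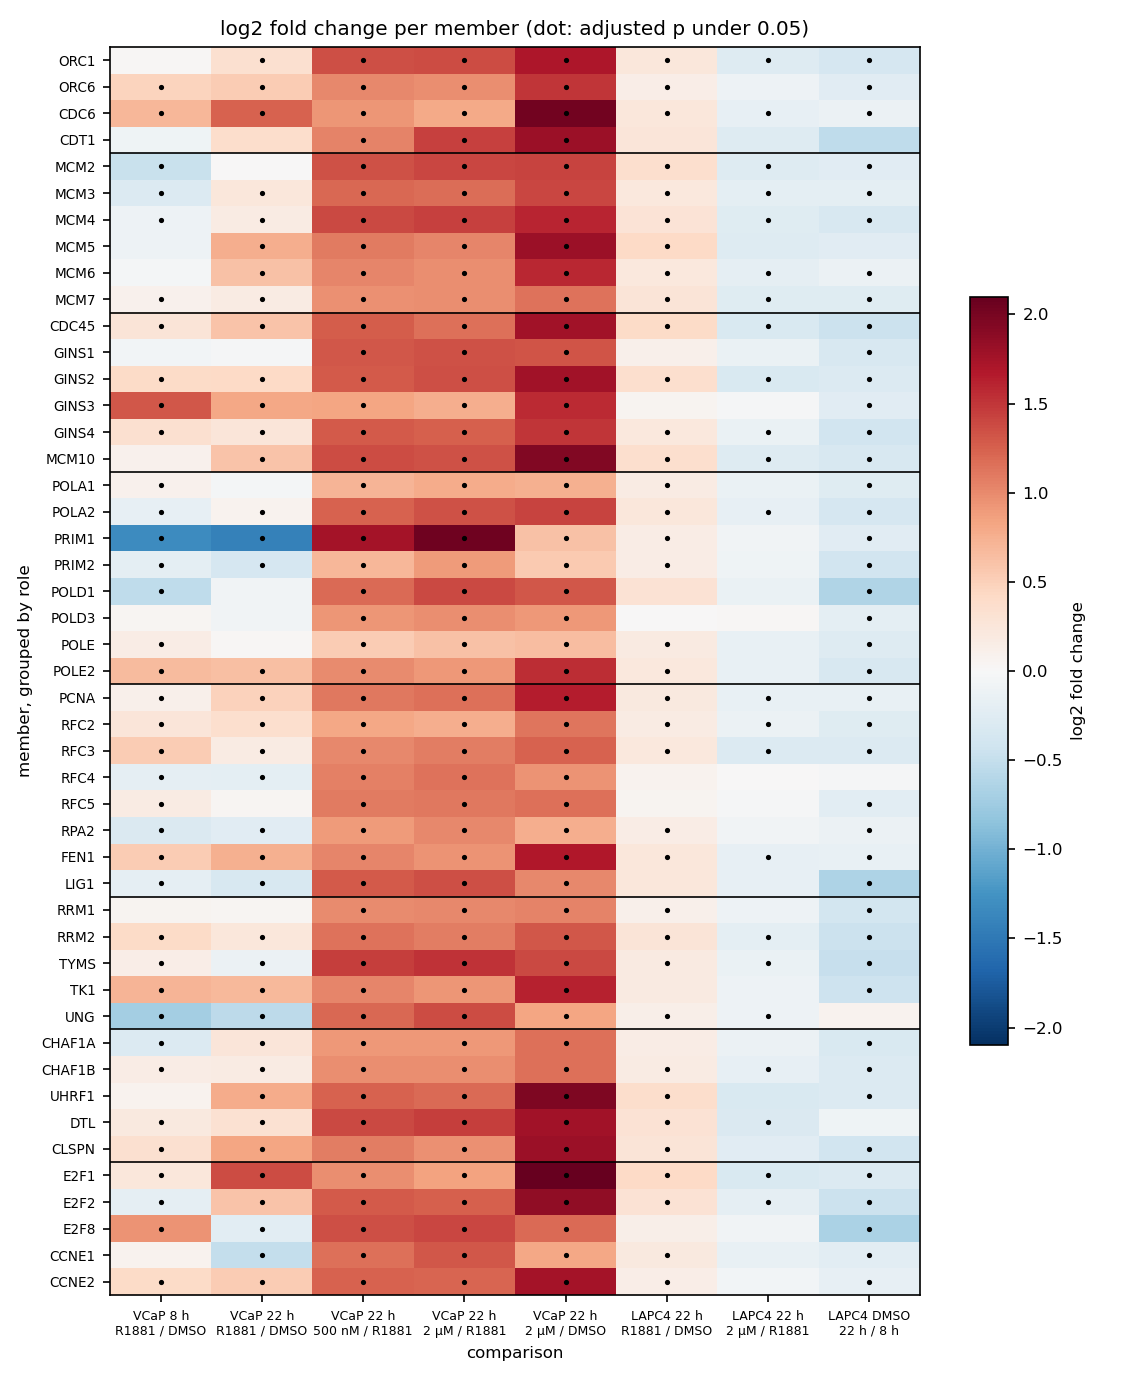
log2 fold change of each member (rows, grouped by role with lines between groups) in 8 comparisons (columns), red for higher and blue for lower, with a dot where the adjusted p was under 0.05. The columns of VCaP with darolutamide at 22 h are red for all 47 genes, the R1881 columns of VCaP hold both colors, and the LAPC4 columns are pale.

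At 8 h the response to R1881 in VCaP was already divided, with 24 members higher and 13 lower, where 66.9% of all genes were called. With library totals the split was 14 higher and 18 lower. Of the 47, 19 were called higher at both times and PRIM1, PRIM2, RFC4, RPA2, LIG1 and UNG lower at both, where 23.9% and 24.4% of all genes were called higher and lower at both. PRIM1 fell from a median of 26.2 to 10.6 CPM at 8 h, and GINS3 rose from 5.80 to 14.6 CPM, a log2 fold change of 1.31 that was the largest rise at 8 h. E2F1, higher by 0.24 at 8 h, did not pass the test there with either subset of the control replicates or with library totals.

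Tested as a difference of differences, the R1881 effect in VCaP was larger at 22 h than at 8 h for 18 members and smaller for 7, against 60.4% of all genes called. E2F1 gained most, by 1.13 ± 0.10 (SE, log2), followed by MCM5 with 0.88 and E2F2 with 0.79. E2F8 moved the other way: it had medians of 5.94 CPM in DMSO and 11.4 CPM in R1881 at 8 h, and 10.5 and 8.96 CPM at 22 h. The 10 R1881 libraries at 8 h lay above all 10 DMSO libraries, whereas the ranges overlapped at 22 h. MCM3, MCM4, POLA2, CHAF1A and E2F2 were called lower at 8 h and higher at 22 h, and TYMS and E2F8 the reverse, where 4.14% and 3.93% of all genes were called in these orders. With library totals POLA2 at 22 h and TYMS at 8 h changed sign and CHAF1A at 22 h lost its call, while PCNA, higher by 0.11 at 8 h, came to -0.03.

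The next comparison asked what the receptor antagonist did in VCaP cells that also received R1881. After 22 h with 2 µM darolutamide, all 47 genes were higher than with R1881 alone, and 30 of them by more than 1 on the log2 scale. Over all genes 66.9% were called, 36.1% as higher, and 9.34% were higher by more than 1. Since this comparison and that of R1881 with DMSO share the R1881 libraries, each is given by its own values. The median log2 fold change of the members was 1.15, with a range of 0.61 for POLE to 2.03 for PRIM1, against 0.06 over all genes. With 500 nM all 47 were again higher, 33 by more than 1 and with a median of 1.09, where 53.0% of all genes were called, 26.7% as higher and 5.32% as higher by more than 1.

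The rise went past the level in DMSO. Against DMSO at 22 h all 47 members were higher with 2 µM darolutamide, 38 by more than 1, where 59.0% of all genes were called, 30.5% as higher and 2.96% as higher by more than 1. The median log2 fold change was 1.41, with a range of 0.54 for PRIM2 to 2.21 for E2F1. At 46 genes each of the 9 darolutamide libraries lay above each DMSO and R1881 library at 22 h, the exception being CCNE1, and 4.63% of all genes showed this. At 44 genes they also lay above all other 46 VCaP libraries of either time point, the exceptions being CCNE1, GINS3 and POLD1, and 3.42% of all genes did so. At 8 h the same comparison with DMSO gave 29 members higher and 1 lower, where 27.5% of all genes were called. The 1 lower was PRIM1, at a log2 difference of -0.24, and UNG with -0.04 and MCM2 with -0.06 also had the opposite sign there.

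The values per library show this for single genes. E2F1 measured 68.0, 57.9, 57.2 and 69.4 CPM in the 4 libraries with 500 nM and 58.7, 60.6, 61.3, 55.7 and 50.9 CPM in the 5 with 2 µM. All 9 values exceeded the highest of the R1881 libraries, 35.2 CPM, and its log2 fold change for 2 µM against R1881 was 0.84 ± 0.078 (SE, edgeR's quasi-likelihood test, adjusted p 3.98e-14). CDC6 measured 152, 160, 154 and 161 CPM with 500 nM and 145, 144, 129, 150 and 153 CPM with 2 µM, again all above the R1881 libraries. MCM4 measured 506, 486, 491 and 492 CPM with 500 nM and 504, 521, 476, 521 and 534 CPM with 2 µM, where no R1881 library exceeded 204 CPM.

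PRIM1 and UNG, whose R1881 libraries lay below those of DMSO, were also highest with darolutamide. PRIM1 measured 42.3, 40.5, 42.7 and 37.9 CPM with 500 nM and 46.8, 52.4, 47.7, 50.0 and 52.3 CPM with 2 µM. These values lie above both the R1881 libraries, at most 14.0 CPM, and the DMSO libraries, at most 36.3 CPM. UNG measured 138, 134, 138 and 131 CPM with 500 nM and 153, 152, 140, 158 and 154 CPM with 2 µM. Both sets of UNG values lie above the highest DMSO library, 92.2 CPM. For 2 µM against DMSO, the log2 fold change was 0.62 ± 0.062 (SE) for PRIM1, 0.83 for UNG and 0.54 for PRIM2, against a median of 1.41 over the members.

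**Figure D3:**
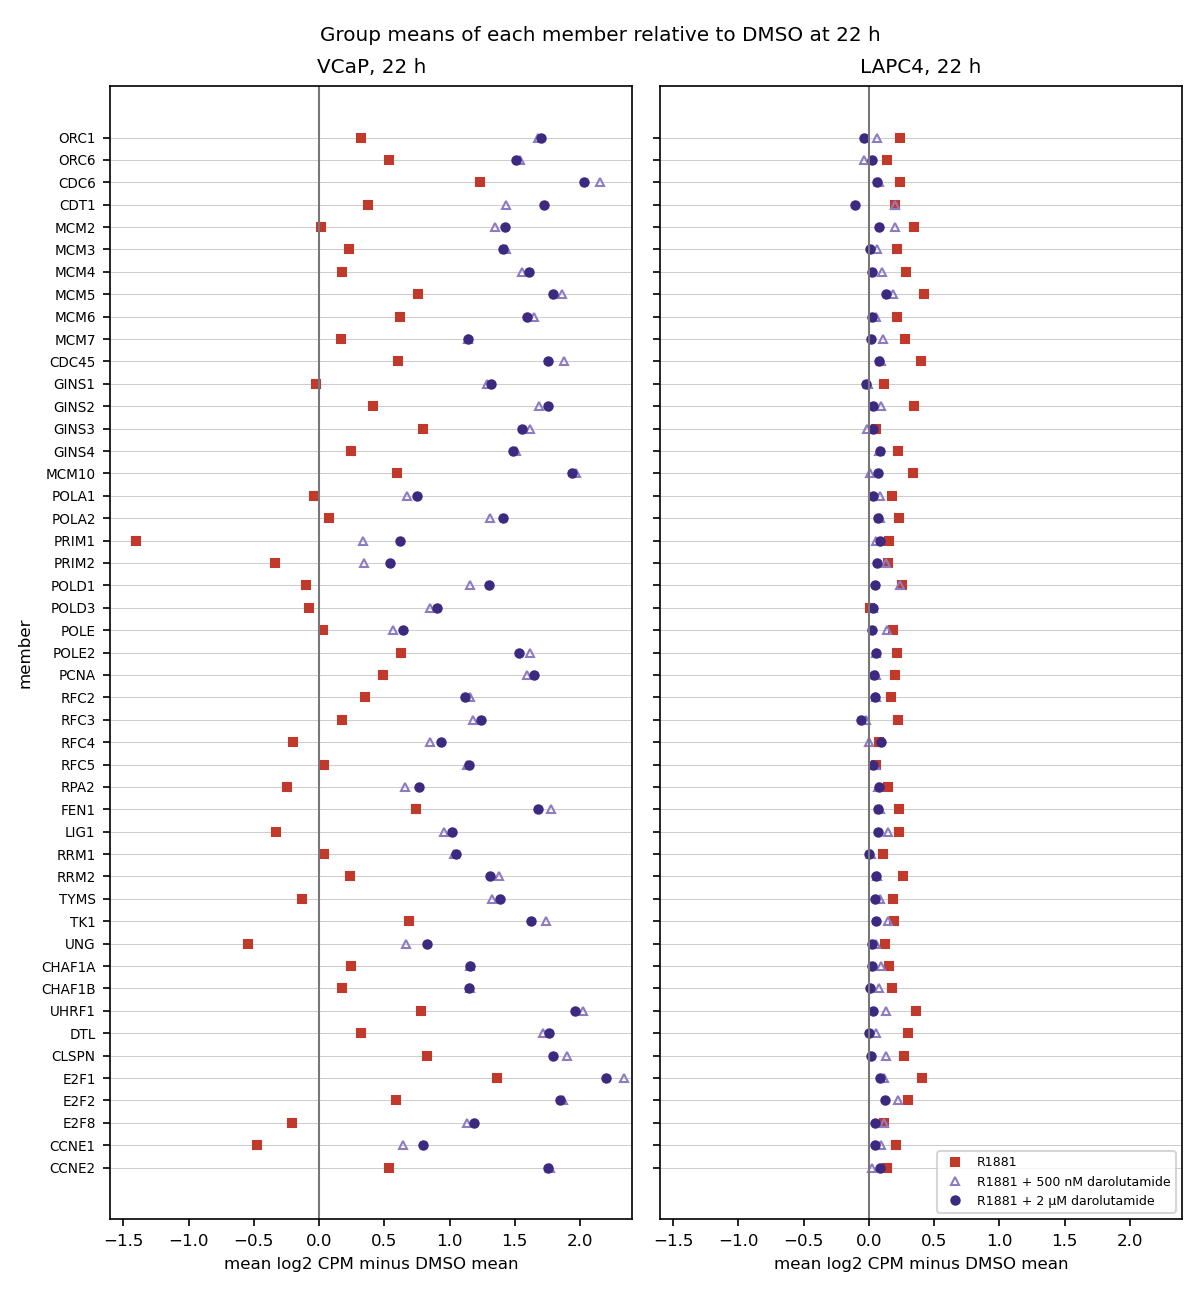
Group mean log2 CPM of each member at 22 h minus its DMSO mean (horizontal axis, members in rows) for R1881 (squares), 500 nM (open triangles) and 2 µM darolutamide (circles), VCaP on the left and LAPC4 on the right. In VCaP both darolutamide symbols lie to the right of zero for every gene, most for E2F1, while in LAPC4 no symbol lies far from zero and the R1881 squares are mostly the rightmost.

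At 8 h darolutamide had a mixed and smaller effect in VCaP. With 2 µM, 23 members were higher and 8 lower than with R1881, where 52.1% of all genes were called, and 30 were higher and 3 lower with library totals. The 8 lower members were CDC6, GINS3, POLE2, RFC3, FEN1, RRM2, TK1 and E2F8. GINS3 fell most, by 1.01 on the log2 scale, from 12.4–16.1 CPM in R1881 to 6.77–7.41 CPM, and PRIM1 rose most, by 1.07. With 500 nM, 26 members were higher and 2 lower, where 30.6% of all genes were called.

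Between the 2 doses at 22 h in VCaP, 2 members passed the test, PRIM1 and UNG, both higher with 2 µM, by 0.29 ± 0.074 and 0.16 ± 0.051 (SE, log2, edgeR's quasi-likelihood test with adjusted p 0.00273 and 0.0154), where 20.2% of all genes were called. The count depended on the fit: it was 6 with the GC slope as a covariate, 4 with only the groups compared, 1 without replicate 1 of the 500 nM group and 0 without its replicate 4. The interval of the difference was narrow for PCNA, from -0.01 to 0.13, wider for E2F1, from -0.32 to 0.05, and widest for CDT1, from -0.12 to 0.88 (95%, log2). At 8 h 2 members were higher and 6 lower with 2 µM than with 500 nM, where 17.6% of all genes were called, and library totals gave 3 and 4. PRIM1 and UNG were the higher ones, with 0.37 and 0.27, and GINS3 fell most, by 0.42 on the log2 scale.

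In LAPC4, R1881 raised the replication genes at 22 h by small amounts. Of the 47 members 36 were higher and 0 lower than with DMSO, where 13.3% of all genes were called, 6.83% as higher. The median log2 fold change was 0.22, against 0.01 over all genes, and all 47 values were positive, from 0.01 for POLD3 to 0.42 for MCM5 and E2F1. At 15 genes every R1881 library lay above every DMSO library, which held for 2.30% of all genes. Only 2 DMSO libraries at 22 h had replicate numbers of 6 or more, and with control replicates 6 and above alone 16 members were called, while replicates 1 to 5 gave 33. MCM5 did not pass the test with either subset and E2F1 did not with replicates 6 and above.

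MCM4 measured 156, 168 and 173 CPM (lowest, median, highest) in the 7 DMSO libraries and 193, 204 and 214 CPM in the 10 R1881 libraries of LAPC4, a log2 fold change of 0.28 ± 0.026 (SE, edgeR's quasi-likelihood test, adjusted p 2.07e-13). PCNA went from 101, 108 and 116 CPM to 119, 122 and 131 CPM, a log2 fold change of 0.20. GINS2, a further GINS subunit, went from 12.8, 13.8 and 14.2 CPM to 15.5, 17.6 and 18.9 CPM, which is 0.35. None of these 3 genes overlapped between the groups. E2F1 had its lowest R1881 library at 23.6 CPM and its highest DMSO library at 24.2 CPM, so its log2 fold change of 0.42 ± 0.084 came with overlap, as did that of MCM5, 0.42 ± 0.13 (SE). CDC45 rose by 0.40 and DTL by 0.30.

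Adding darolutamide to R1881 lowered replication genes in LAPC4. With 2 µM at 22 h, 0 members were higher and 23 lower than with R1881, where 10.5% of all genes were called and 5.47% as lower, and the median log2 fold change was -0.16. The comparison shares its R1881 libraries with the one before. CDC6, FEN1, GINS2, MCM10, MCM3, MCM4, MCM6, PCNA and RFC3 had every 2 µM library below every R1881 library, as did 2.25% of all genes. MCM4 measured 168, 176, 167, 171 and 170 CPM in these 5 libraries, of which 4 lay within the range of the DMSO libraries and 1 above it. GINS2 measured 14.7, 14.9, 13.2, 14.4 and 13.0 CPM, of which 2 lay within the range of DMSO and 3 between it and the lowest R1881 library. With 500 nM, 18 members were lower and 0 higher, where 5.89% of all genes were called, 3.21% as lower. With control replicates 6 and above, 15 members were lower with 2 µM.

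Against DMSO at 22 h, 0 members differed with 2 µM darolutamide in LAPC4 by edgeR's quasi-likelihood test or by DESeq2, and 2 had an unadjusted p under 0.05, where 0.0165% of all genes were called. The interval of the difference ran from -0.03 to 0.11 for PCNA, from -0.01 to 0.13 for CDC6 and from -0.10 to 0.29 for E2F1 (95%, log2). The 2 doses gave 0 different members at 22 h and 0 at 8 h by both tools, with 1 at an unadjusted p under 0.05 each time, where 0.258% and 0.0275% of all genes were called. At 8 h R1881 changed 0 members by both tools and 2 at an unadjusted p under 0.05, where 2.64% of all genes were called. Darolutamide changed 0 at 8 h with either dose by both tools, and 3 at an unadjusted p under 0.05 with each, where 1.54% of all genes were called with 2 µM and 0.626% with 500 nM.

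**Figure D4:**
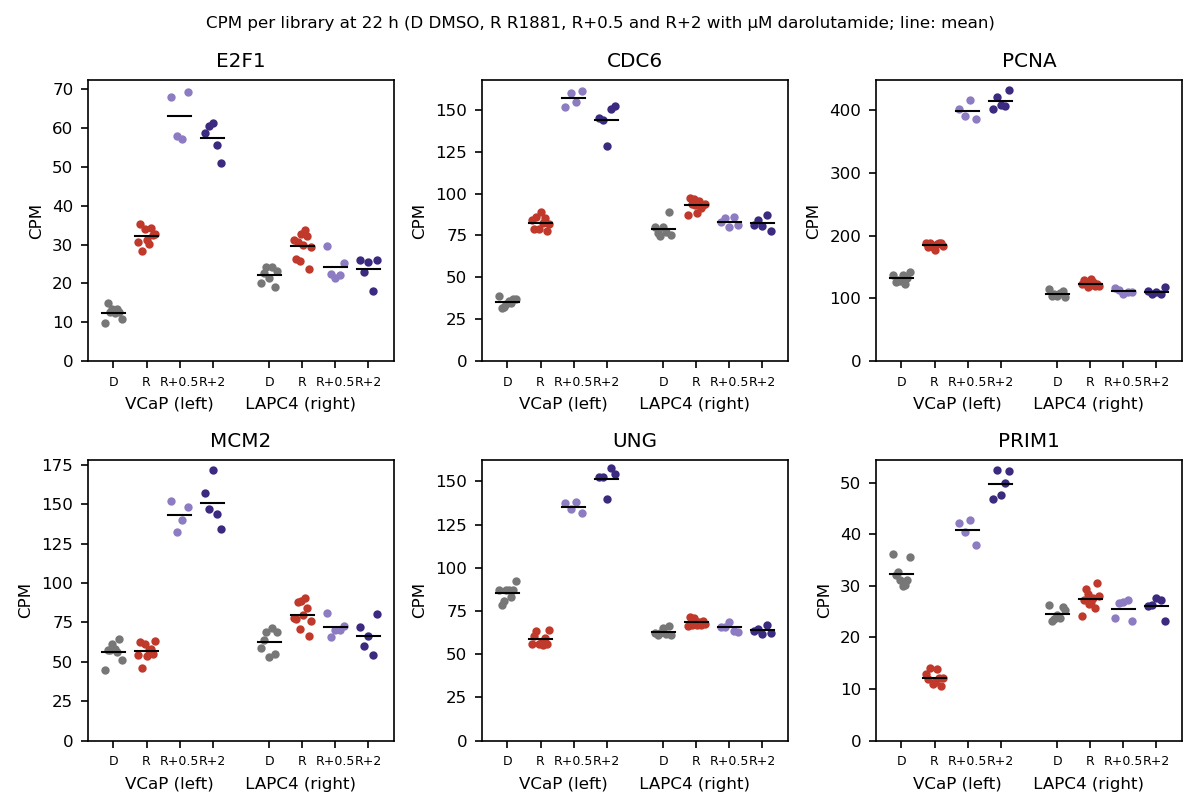
CPM (vertical axis, from 0) of 6 members in each library at 22 h, VCaP on the left and LAPC4 on the right of each panel, with a line at the group mean. In VCaP, E2F1, CDC6 and PCNA step up from DMSO to R1881 and again to darolutamide, UNG and PRIM1 are lowest in R1881, and MCM2 is level between DMSO and R1881; in LAPC4 the groups lie close together.

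The R1881 effect at 22 h was then compared between the lines by a test of the difference itself. It was more positive in VCaP for 15 members and more negative for 16, where 68.5% of all genes were called. Library totals gave 12 and 21 and the fit with no filter on low counts 17 and 10, so the balance of the directions depended on both choices. CDC6 differed by 0.94 and E2F1 by 0.89 on the log2 scale. At 26 members R1881 raised the level in both lines, among them E2F1, CDC6, CDC45, PCNA and MCM5, and 3.82% of the 16578 genes tested in both lines were called higher in both. At PRIM1, PRIM2, RPA2, TYMS, UNG and CCNE1 it was lower in VCaP and higher in LAPC4, as at 2.44% of these genes, and the differences were -1.63, -0.55, -0.45, -0.37, -0.73 and -0.76, each called. In LAPC4 the rise of PRIM1 was 0.16 ± 0.046, from 23.3–26.3 CPM in DMSO to 24.1–30.7 CPM with overlap, that of UNG 0.12 ± 0.027, from 61.0–66.0 CPM to 66.5–71.4 CPM without, and with control replicates 6 and above all 6 genes lost their calls in LAPC4, PRIM1 and CCNE1 also with replicates 1 to 5.

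The level in DMSO moved with time in LAPC4. At 22 h 42 members were lower than at 8 h and 0 higher, where 22.1% of all genes were called, 11.4% as lower, with a median log2 fold change of -0.28. E2F8 fell most, by 0.66 on the log2 scale, and TYMS fell by 0.49. At 26 genes every 22 h DMSO library lay below every 8 h DMSO library, which held for 2.82% of all genes. The R1881 effect was larger at 22 h than at 8 h for 25 members and smaller for 0, where 3.21% of all genes were called, 1.80% as higher, with GINS2 at 0.40 and UHRF1 at 0.49. With control replicates 6 and above, 23 members were lower in DMSO at 22 h and 5 had a larger R1881 effect. In VCaP DMSO 5 members were higher and 9 lower at 22 h, where 29.8% of all genes were called, and 5 and 15 with library totals. The log2 differences of the members there ranged from -0.72 to 0.75. RRM2 rose by 0.68, whereas MCM6 and MCM4 fell by 0.34 and 0.17 on the log2 scale. At 3 members, CCNE1, MCM4 and MCM6, every 22 h DMSO library lay below every 8 h DMSO library, as at 2.47% of all genes.

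Other genes of the same processes were counted from written lists. Among 34 further replication factors, 10 were higher and 12 lower with R1881 at 22 h in VCaP. Over all genes 37.4% were called higher and 40.0% lower there. ATAD2 rose by 1.05, ORC5 by 0.86 and the histone mRNA binding protein SLBP by 0.52 on the log2 scale. With 2 µM darolutamide 31 of the 34 were higher and 1 lower than with R1881, the lower one being ORC5 with -0.25. In that comparison 66.9% of all genes were called, 36.1% as higher. In LAPC4, 15 of the 34 were higher with R1881 and 0 lower, where 13.3% of all genes were called, 6.83% as higher. POLE4, a polymerase epsilon subunit, rose by 0.30 and TICRR, needed to start replication, by 0.23.

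In VCaP, 13 of the 23 genes of RB-E2F and G1/S control that were tested, of 24 listed, were higher and 9 lower with R1881. Over all genes 37.4% were called higher and 40.0% lower. Cyclin D1 (CCND1) rose by 1.05, the kinase gene CDK2 by 0.97 and the kinase inhibitor gene CDKN1A by 2.03 on the log2 scale. With 2 µM darolutamide against R1881, CCND1 fell by 0.57 and CDKN1A by 1.71 on the log2 scale, whereas CDK2 rose by a further 0.34. In LAPC4 6 of the 23 were higher with R1881 and 0 lower, where 6.83% of all genes were called higher. E2F7 rose by 0.48, CCND1 by 0.29 and CDC25A by 0.24.

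Of 25 genes of G2 and mitosis, 1 was higher and 22 were lower with R1881 in VCaP at 22 h. Over all genes 37.4% were called higher and 40.0% lower. The log2 fold change was -0.83 for TTK, -0.79 for TOP2A and -0.73 for NUSAP1. With 2 µM darolutamide all 25 were higher than with R1881, where 36.1% of all genes were called higher. Against DMSO 23 were higher, where 30.5% of all genes were called higher. The median log2 fold change against DMSO was 0.34, and that of the 47 members was 1.41. The DMSO levels had moved differently with time. From 8 h to 22 h in VCaP DMSO, the median log2 fold change was 1.33 for the 25 genes and -0.02 for the members. In LAPC4 2 of the 25 were higher with R1881 and 0 lower, where 6.83% of all genes were called higher. These were MKI67 at 0.24 and BIRC5 at 0.12, and CDK1 at 0.10 did not pass the test.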

How the data were processed

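Poly(A) RNA of VCaP and LAPC4 cells was sequenced in single-end reads of 50 bases. STAR (alignment, GRCh38) and featureCounts (reads per gene) were used by the authors, and the deposited table holds these counts without normalization. The annotation and strand setting are not given in the sources used here, so overlapping and antisense genes are uncertain. After TYMS and CCNE2, the largest exon overlaps were 23.6% for MCM2, 21% for GINS4 and 10.9% for GINS3, on the other strand. On the same strand they were 16.8% for POLA2 and 10.9% for PRIM1. Groups came from the sample labels. The methods of the study describe biological replicates, 5 per condition, while 4 to 10 libraries per group were present and used.

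Everything else was computed in R 4.3.3. In each line, genes reaching 10 reads in 4 or more libraries were kept, scaled by TMM and tested with edgeR 4.0.16 (glmQLFit, glmQLFTest), the 8 groups of a line in one fit. Benjamini-Hochberg adjusted p-values cover all genes tested, and calls use 0.05. The difference between lines was tested over the libraries of both lines and 16578 genes. log2 CPM used a prior count of 2. Data with known changes were simulated for VCaP R1881 against DMSO at 22 h over 19266 genes. Of 86 genes changed by 0.5 on the log2 scale, 87.2% were recovered. Far fewer genes were changed than were called in the data, all with a mean over 1 CPM. Smaller changes were not simulated, so this share need not hold for the data. No pair of libraries of a group agreed within sampling noise. This does not show whether all libraries of a group are separate biological replicates.

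The members and lists were chosen with earlier results of these data known. A rule named the 2 members of each role group with the largest called R1881 change at 22 h per line. It also named members with opposite calls between lines or times. The values of those named in VCaP are given. Of the members with the largest change in LAPC4, the R1881 change there is given for MCM5, CDC45, GINS2, DTL and E2F1 only. MCM4 and PCNA, shown for LAPC4, were named by their VCaP values. For the lists of other replication and cell-cycle genes, the 3 genes with the smallest adjusted p at 22 h per line are given, except 1 that is not reported here. GINS1 and other members outside this rule were chosen after their values were seen. Alternatives were DESeq2 1.42.0, library totals, no filter, filterByExpr, only the groups compared, the replicate block, a covariate for each library's slope on gene GC content, other control replicates and leaving out each darolutamide replicate.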

Additional observations from a re-analysis of the deposited data

Results flagged for a closer look

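Single libraries stood apart from the rest of their group in 13 of 264 sets of values (4.92%), where chance gives about 1 in 20. The sets were the 31 members named by the rule above at 22 h and the mean over the members in every group at both times. All 13 were values of single members. The sets share libraries and are therefore not independent. In LAPC4 these were CDC6 at 88.8 CPM in DMSO replicate 6, POLE2 at 18.4 CPM and FEN1 at 70.4 CPM in R1881 replicates 9 and 4, and UHRF1 at 41.0 CPM, MCM3 at 129 CPM and E2F8 at 20.5 CPM in replicate 1 of the 500 nM group. In VCaP they were GINS2 at 6.42 CPM in DMSO replicate 6 and CHAF1A at 48.1 CPM in replicate 1 of the 500 nM group. With 2 µM darolutamide in VCaP they were UNG at 140 CPM, UHRF1 at 70.5 CPM and E2F8 at 20.2 CPM in replicate 3, GINS2 at 19.0 CPM in replicate 2 and PRIM2 at 25.9 CPM in replicate 5. Several values came from the same library. Replicate 1 of the LAPC4 500 nM group and replicate 3 of the VCaP 2 µM group had the least negative GC slopes of their groups, -0.0310 and -0.0513. Of the other libraries named here, some lay at an end of their group in GC slope and some did not. The part of the GC slope in these values was not tested.

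The R1881 effect differed between 8 h and 22 h for 25 members in VCaP and for 25 in LAPC4, and between the lines at 22 h for 31, each by the interaction test of edgeR, where 60.4%, 3.21% and 68.5% of all genes were called. The VCaP count over time and the count between lines are thus no larger a share of the 47 than of all genes. In VCaP the effect at 22 h minus that at 8 h was 0.52 for MCM3, 0.28 for MCM4, 0.25 for POLA2, 0.54 for CHAF1A and 0.79 for E2F2, and -0.27 for TYMS and -1.16 for E2F8, on the log2 scale. The effect in VCaP minus that in LAPC4 was -1.63 for PRIM1, -0.55 for PRIM2, -0.45 for RPA2, -0.37 for TYMS, -0.73 for UNG and -0.76 for CCNE1.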

How the results depend on the processing

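Counts of called members stayed within 1.5 times of the reported value in 272 of the recomputed values and moved in 17. These are totals in either direction, so a changed balance of higher and lower, as with library totals in VCaP at 8 h, is not seen. Counts already near 47 could not rise by that factor, and many of the fits differ by a single library. For single members, 1804 values kept their direction and call, 64 lost the call and 7 changed sign. With control replicates 6 and above, counts in LAPC4 fell from 36 to 16 for R1881 against DMSO at 22 h, from 23 to 15 for 2 µM against R1881, from 42 to 23 for DMSO over time and from 25 to 5 for the R1881 effect over time, and ORC6 in LAPC4 came to -0.0403; these fits hold fewer libraries. With the GC slope as a covariate the last count was 38, LAPC4 with 500 nM at 22 h gave 28 in place of 18, LAPC4 with 2 µM at 8 h 1 in place of 0, the doses in VCaP at 22 h 6 in place of 2 and VCaP DMSO over time 22 in place of 14. Fitting only the groups compared gave 4 for the doses in VCaP at 22 h. Against DMSO, 500 nM in place of 2 µM gave 1 member in LAPC4, and 8 h in place of 22 h gave 30 of 47 in VCaP, where MCM2 (-0.0586), PRIM1 (-0.24) and UNG (-0.0409) changed sign; both were chosen after seeing the data. With library totals PCNA at 8 h (-0.0338), POLA2 at 22 h (-0.0346) and TYMS at 8 h (-0.00676) changed sign in VCaP. The cause of these shifts was not tested. Leaving out each darolutamide replicate gave 0 to 3 members for the doses in VCaP at 22 h (0 without 500 nM replicate 4, 1 without 500 nM replicate 1), 0 to 1 for LAPC4 with 2 µM at 8 h (1 without replicate 1), and 47 throughout for VCaP darolutamide at 22 h.

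Replicate numbers are shared by the groups, but not every same-numbered pair deviated together: the correlation of deviations was over 0.1 in 33 of 149 pairs in VCaP and 57 of 161 in LAPC4, with means of -0.00511 and 0.0549. With the number as a replicate block, VCaP with 500 nM at 8 h gave 11 in place of 28 and the doses in VCaP at 8 h 5 in place of 8, and the other counts stayed within 1.5 times. CDT1 and CCNE1 had the fewest reads in both lines, ranked by the 4th-highest count, which limits their precision. That count was 143 and 59 in VCaP, and 253 and 301 in LAPC4.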
